A study of Danio rerio with 6 samples.

Results

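The genes described here are 7 transcription factors that act in the choice between cone subtypes in the zebrafish retina, *thrb*, *rxrga*, *six7*, *six6b*, *foxq2*, *tbx2a* and *tbx2b*. They were taken by name from the 32520 genes listed in each sample, and each name matched 1 entry. A cone expresses an opsin that sets the light it responds to, and zebrafish larvae have red, green, blue and UV cones. Each subtype depends on its own small set of factors. In zebrafish, the thyroid hormone receptor encoded by *thrb* is needed for red cones, *six7* for the expression of the green cone opsins, *foxq2* for blue cones and *tbx2b* for the full number of UV cones. Several of these factors are also used outside cones, *tbx2a* and *tbx2b* in the inner ear and the heart among other places, and *six6b* in other cells of the eye and in the hypothalamus, so that a level in whole heads is a sum over tissues.

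RNA was prepared from dissected heads of AB strain larvae at 4 days post-fertilization (dpf), with 3 samples from wild-type (wt) larvae and 3 from *tulp1a* and *tulp1b* double knockout larvae (*tulp1*-dKO). The knockout combines 1 mutant line of each gene, made with CRISPR-Cas9, and the sources used here do not say how many larvae made up a sample or whether the samples of a group came from separate clutches, so p-values measure the spread between these samples. The authors deposited TPM values, transcript levels corrected for gene length and scaled to a fixed total, and the reads behind each value are not known. As a check of the labels, *tulp1a* had a mean of 15.4 TPM in *tulp1*-dKO and 24.7 TPM in wt heads, and *tulp1b* of 2.36 and 11.6 TPM, without overlap between the groups. The listed genes summed to between 945666 and 948860 TPM per sample, and no sample stood apart in its correlation with the others of its group, at 0.9705 to 0.9745 (Pearson's r across genes, which are not replicates).

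None of the 7 factors changed by the thresholds of the study, a fold change of at least 2 with an adjusted p not above 0.05, and none had an adjusted p of at most 0.05 at any fold change (limma on log2(TPM + 0.1), adjusted by Benjamini-Hochberg over the 22824 genes whose mean reached 0.5 TPM). Of all genes tested, 1.32% changed by these thresholds and 1.89% had an adjusted p of at most 0.05. The study set these thresholds on a DESeq2 test of counts and reported more changed genes than the 302 called here. The lack of a call here is therefore not a result of the study's own test. At an unadjusted p of at most 0.05, *six7*, *foxq2*, *six6b* and *rxrga* were lower in *tulp1*-dKO heads, 4 of the 7, where 6.97% of all genes tested were lower at that p. For the same 4 genes the highest *tulp1*-dKO value was below the lowest wt value, which held for 8.86% of all genes tested. The values of *thrb*, *tbx2a* and *tbx2b* overlapped between the groups. All 7 factors passed the filter on low values through both groups. Heads were sampled whole, so fewer cells of a type and less RNA per cell cannot be told apart.

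**Figure D1:**
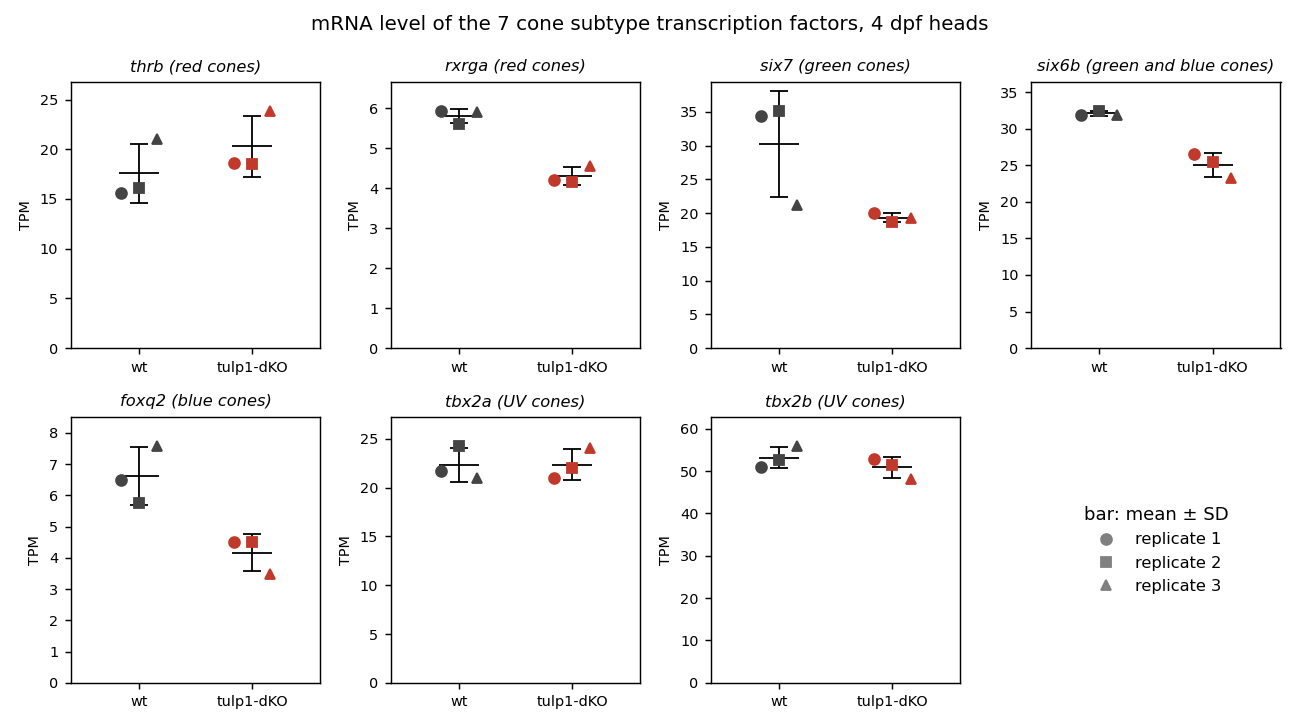
mRNA level in TPM (y axis, from 0) of each factor in the 3 wt and the 3 *tulp1*-dKO samples (x axis), with the cone subtype it is known for. Markers give the replicate number, the long bar is the mean and the whiskers the SD. The groups do not overlap for *rxrga*, *six7*, *six6b* and *foxq2*, and *six7* in wt sample 3, at 21.3 TPM, lies close to the *tulp1*-dKO samples.

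In wt heads, *tbx2b* had the highest level of the 7, at 53.2 ± 2.57 TPM (mean ± SD, n = 3 samples here and below), above 91.2% of the 26525 genes with a mean above 0 in wt. It was followed by *six6b* at 32.1 ± 0.31 TPM, *six7* at 30.3 ± 7.80 TPM, *tbx2a* at 22.3 ± 1.76 TPM and *thrb* at 17.6 ± 2.97 TPM. The lowest levels were those of *foxq2*, at 6.61 ± 0.93 TPM, and *rxrga*, at 5.82 ± 0.174 TPM, near the middle of all genes, above 48.6% and 45.8% of them. The ranges of *six6b* and *six7*, of *six7* and *tbx2a*, of *tbx2a* and *thrb*, and of *foxq2* and *rxrga* overlapped. Both genes of a pair were measured in the same samples, so overlapping ranges do not show equal levels. Within each wt sample *six7* was above *tbx2a*, and *foxq2* above *rxrga*. The order of *six6b* and *six7*, and of *tbx2a* and *thrb*, varied between wt samples. In *tulp1*-dKO heads the order of the means was *tbx2b*, *six6b*, *tbx2a*, *thrb*, *six7*, *rxrga* and *foxq2*, with *six7* below *tbx2a* and *thrb*. There, too, only *tbx2b* and *six6b*, and *six7* and *rxrga*, were neighbours whose ranges did not overlap. The spread between samples differed between the factors, from a coefficient of variation of 0.966% for *six6b* to 25.8% for *six7* in wt.

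Of the factors of red cones, *thrb* encodes a nuclear receptor for thyroid hormone, and values per gene do not separate the receptor isoform of red cones from the one found in other tissues. *thrb* was at 15.6, 16.1 and 21.0 TPM in wt heads, against 18.6, 18.5 and 23.9 TPM in *tulp1*-dKO heads. Sample 3 was the highest in both groups, and the groups overlapped. The log2 fold change was 0.21, with a 95% interval of −0.17 to 0.59 from limma (adjusted p = 0.566), an interval that does not reach a fold change of 2 in either direction. These intervals are not widened for the number of genes tested. *rxrga* encodes a retinoid X receptor, a partner with which thyroid hormone receptors bind DNA, and in mouse the gamma receptor is needed to keep S opsin out of some cones. *rxrga* was at 5.94, 5.62 and 5.90 TPM in wt heads, against 4.21, 4.15 and 4.57 TPM in *tulp1*-dKO heads. The groups did not overlap, with *tulp1*-dKO heads at 74.1% of the wt mean, and both groups were tight. The log2 fold change of *rxrga* was −0.43 (95% interval −0.72 to −0.13, limma unadjusted p = 0.0105, adjusted p = 0.151).

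*six7* is a sine oculis type homeobox gene without which zebrafish lose green cone opsin expression. It was at 34.4, 35.2 and 21.3 TPM in wt heads, against 20.1, 18.7 and 19.3 TPM in *tulp1*-dKO heads. The *tulp1*-dKO samples lay close together and below all wt samples, while wt sample 3 was well below the other wt samples. The log2 fold change of *six7* was −0.61 (95% interval −1.07 to −0.15, limma adjusted p = 0.18), and without wt sample 3 it was −0.84 with an adjusted p of 0.0213, still under the 2-fold threshold. Some other cone genes were also lower in wt sample 3 than in the other wt samples, and others were higher. As log2 differences of wt sample 3 from the mean of wt samples 1 and 2, *six7* had −0.71, the cone arrestins *arr3a* and *arr3b* −0.88 and −0.91, the transducin subunit gene *gngt2a* −0.86 and the phosphodiesterase subunit gene *pde6ha* −1.70. The same difference was above 0 for every cone opsin tested, with 0.44 for *opn1mw1*. It was 0.32 for the transducin gene *gnat2*, 0.74 for the channel subunit gene *cngb3.2* and 0.40 for *thrb*. Cone genes thus did not fall as a set in that sample. The part of these differences in the result for *six7* was not tested.

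*six6b* acts together with *six7* on the green and blue cone opsins. It was at 31.9, 32.4 and 31.9 TPM in wt heads, against 26.5, 25.4 and 23.2 TPM in *tulp1*-dKO heads. The wt samples were nearly equal, and every *tulp1*-dKO sample was lower. Its log2 fold change was −0.36 (95% interval −0.57 to −0.15), and it ranked first by p among the factors (limma adjusted p = 0.108). *foxq2*, a forkhead gene needed for blue cones, was at 6.50, 5.74 and 7.59 TPM in wt heads, against 4.50, 4.51 and 3.49 TPM in *tulp1*-dKO heads. The groups did not overlap, and the mean in *tulp1*-dKO heads was 63.0% of that in wt. Its log2 fold change of −0.65 was the lowest of the 7 (95% interval −1.05 to −0.25, limma adjusted p = 0.119). The intervals of *foxq2* and *six7* reach just past a 2-fold fall, while those of the other 5 factors do not.

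*tbx2a* and *tbx2b* encode T-box factors, and zebrafish with little Tbx2b have fewer UV cones and more rods. *tbx2a* was at 21.7, 24.3 and 21.0 TPM in wt heads, against 21.0, 22.01 and 24.1 TPM in *tulp1*-dKO heads. The samples of the groups were interleaved. The log2 fold change of *tbx2a* was 0.0032 (95% interval −0.24 to 0.25, limma adjusted p = 0.994), and its sign turned with the scaling and with some samples left out. *tbx2b* was at 51.0, 52.6 and 56.0 TPM in wt heads, against 52.9, 51.5 and 48.2 TPM in *tulp1*-dKO heads. Again the groups overlapped, and the log2 fold change was −0.06 (95% interval −0.26 to 0.13, limma adjusted p = 0.748). The UV cone opsin *opn1sw1* fell in the same samples from 3678 ± 137 TPM to 712 ± 153 TPM, and the interval of its log2 fold change, −2.75 to −2.03, lies wholly below those of both T-box factors.

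**Figure D2:**
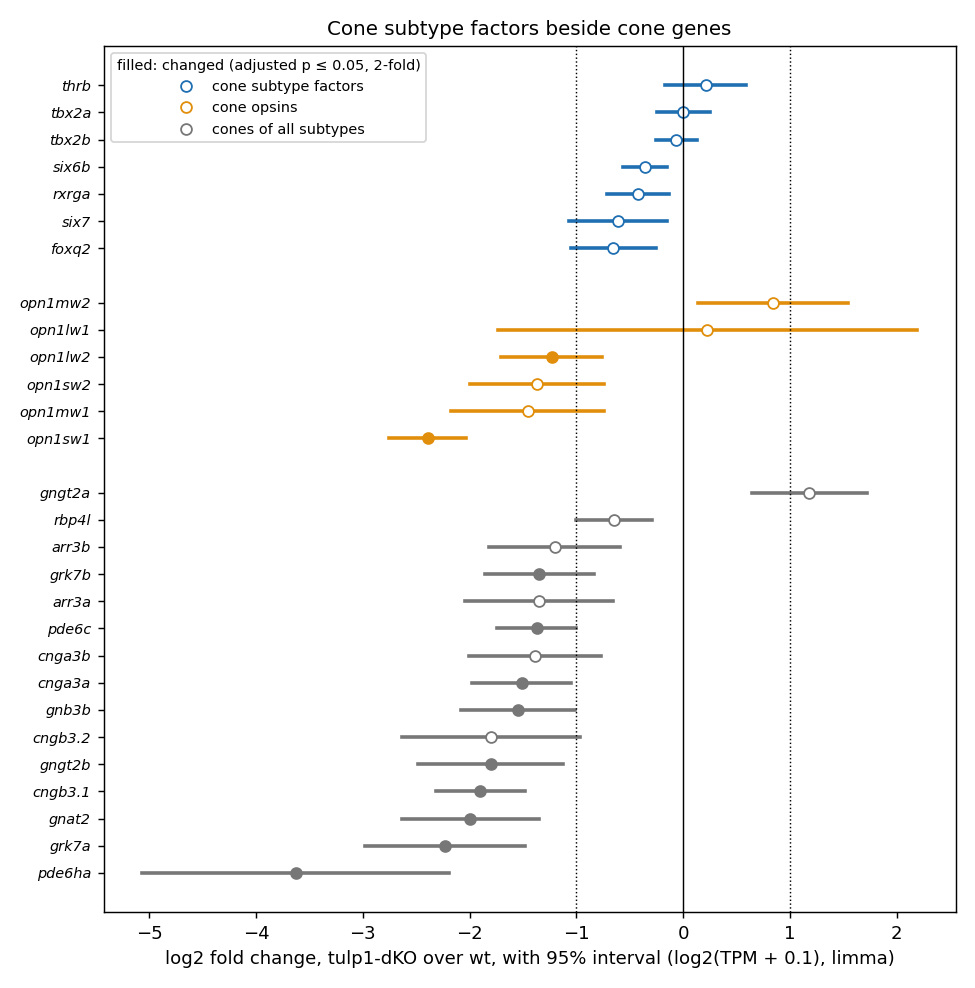
log2 fold change in *tulp1*-dKO over wt heads (x axis, points) with the 95% interval from limma (lines). Shown are the 7 factors, the 6 cone opsins tested and 15 genes listed for cones of all subtypes. Filled points passed an adjusted p of 0.05 and a 2-fold change, and dotted lines mark 2-fold. The factors lie between −0.65 and 0.21, and most opsins and cone genes lie below −1.

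To ask whether each factor differed from the opsin of its own cone subtype, the ratio of both was taken within each sample. Per 1000 TPM of the UV cone opsin, *tbx2b* was at 13.5, 14.9 and 15.0 TPM in wt heads, against 63.8, 67.2 and 89.4 TPM in *tulp1*-dKO heads, 5.02-fold higher on average (log2 difference 2.33, SE 0.16). *tbx2a* was at 5.62 to 6.89 TPM per 1000 TPM of the same opsin in wt heads, compared with 25.3 to 44.6 TPM in *tulp1*-dKO heads, 5.27-fold higher (log2 difference 2.40, SE 0.26). For these UV cone factors the shift in the ratio was nearly all in the opsin. Per 1000 TPM of the red cone opsins, *opn1lw1* and *opn1lw2* summed, *thrb* was at 6.28, 6.80 and 7.02 TPM in wt heads, against 13.2, 15.3 and 29.7 TPM in *tulp1*-dKO heads, 2.72-fold higher (log2 difference 1.44, SE 0.36). *rxrga* was at 1.97 to 2.39 TPM per 1000 TPM of red cone opsin in wt heads, compared with 2.99 to 5.68 TPM in *tulp1*-dKO heads, 1.75-fold higher (log2 difference 0.81, SE 0.29).

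The factors of green and blue cones had mean shifts below those of *thrb*, *tbx2a* and *tbx2b*, while the shift of *rxrga* lay within their range. Differences in shift between factors were not tested. *six6b* was at 16 to 23.9 TPM per 1000 TPM of the 4 green cone opsins in wt heads, compared with 32.1 to 57.2 TPM in *tulp1*-dKO heads, 2.03-fold higher (log2 difference 1.02, SE 0.31). Relative to the blue cone opsin *opn1sw2*, *six6b* was 2.02-fold higher (log2 difference 1.01, SE 0.31). The ratio of *six7* to the blue cone opsin was not taken. *foxq2* was at 5.58, 5.47 and 4.97 TPM per 1000 TPM of the blue cone opsin in wt heads, compared with 7.17, 8.19 and 11.2 TPM in *tulp1*-dKO heads, 1.64-fold higher (log2 difference 0.72, SE 0.20). *six7* was the exception, at 21.4, 25.9 and 10.6 TPM per 1000 TPM of green cone opsin in wt heads, compared with 24.3, 25.1 and 47.4 TPM in *tulp1*-dKO heads. Here the groups overlapped, and the 1.70-fold higher mean (log2 difference 0.77, SE 0.50) was within their spread. In 7 of the 8 pairs the ratios of the *tulp1*-dKO samples all exceeded those of the wt samples, which in an exact two-sided permutation test gives p = 0.1, the smallest that 3 samples against 3 allow, and for *six7* p = 0.3. Adjusted over 15 such ratios, these are 0.107 and 0.3, so that no ratio passes a threshold of 0.05 in this design. The opsin levels in the ratios were lower in *tulp1*-dKO heads, so a gene with a steady level would also show a higher ratio. The share of all genes with such a rise was not measured, so the count cannot be read as particular to the factors. Pairs of one colour share their opsin levels and *six6b* enters 2 pairs, so the 8 pairs are not independent of each other. *tulp1*-dKO sample 3 had the highest ratio of all 6 samples in every pair, and the lowest TPM of *opn1sw1*, *opn1sw2*, *opn1mw1* and *opn1lw2*. Reads may be shared between the opsin copies of one colour, which is why the red and the green copies were summed.

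**Figure D3:**
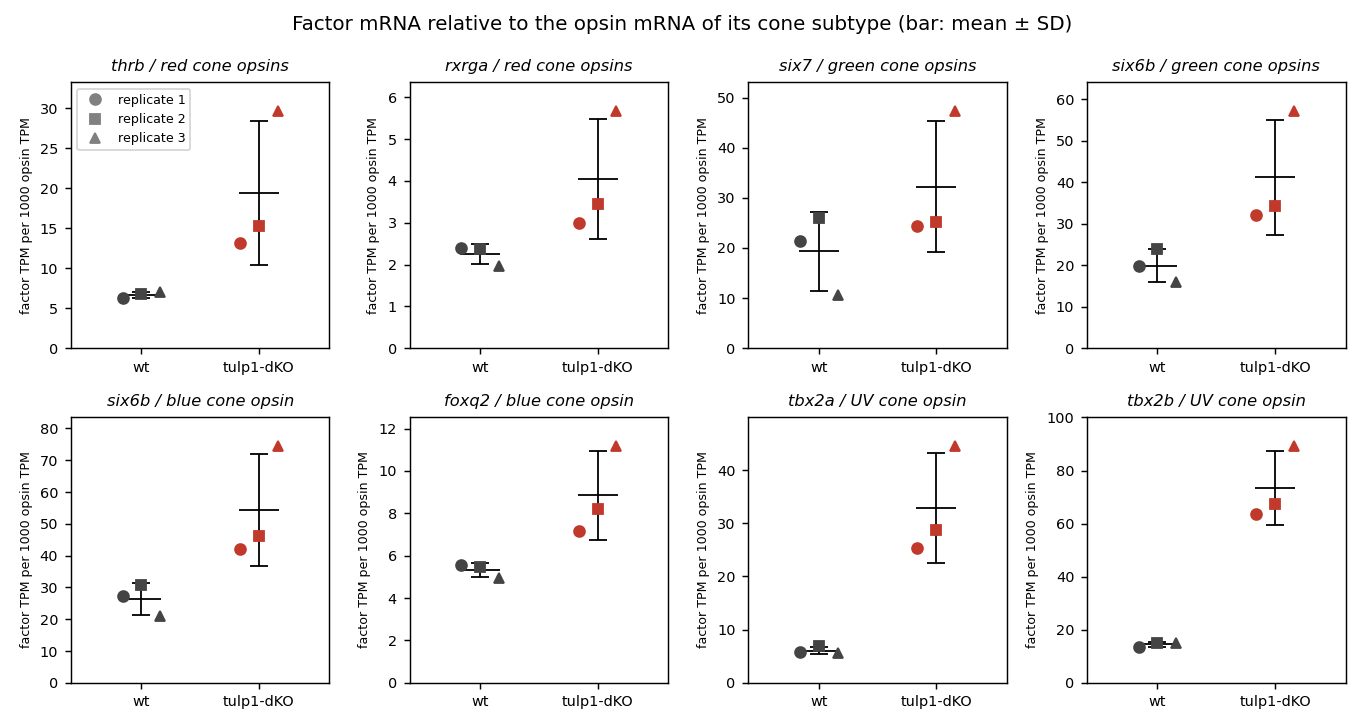
TPM of each factor per 1000 TPM of the opsin or summed opsins of its cone subtype (y axis, from 0) in the wt and *tulp1*-dKO samples (x axis). Markers give the replicate number, the long bar is the mean and the whiskers the SD. In *tulp1*-dKO samples the ratio is higher without overlap in 7 of the 8 pairs, all but *six7* with the green cone opsins. The opsin levels in the ratios were lower in *tulp1*-dKO samples, which by itself raises a ratio.

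The opsin levels behind these ratios differed in size. The red cone opsin *opn1lw2* and the UV cone opsin *opn1sw1* changed, with log2 fold changes of −1.23 (limma adjusted p = 0.0346) and −2.39 (adjusted p = 0.00126). *opn1sw2* and the main green cone opsin *opn1mw1* were lower in every *tulp1*-dKO sample at adjusted p values of 0.0569 and 0.0692 by limma. *opn1lw1*, at under 3 TPM in every sample, had a log2 fold change of 0.23 with an interval of −1.73 to 2.19. *opn1mw2*, a minor green cone opsin copy, was at 14.7, 16.4 and 22.5 TPM in wt heads, against 25.0, 24.8 and 50.2 TPM in *tulp1*-dKO heads, higher without overlap in *tulp1*-dKO heads (log2 fold change 0.84, limma adjusted p = 0.216). *opn1mw3* and *opn1mw4* were at or below 0.58 TPM in every sample and were not tested. The changed opsins numbered 1 in place of 2 without wt sample 1, 2 or 3 or *tulp1*-dKO sample 2, and 3 without *tulp1*-dKO sample 3.

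Against genes listed for cones of all subtypes, such as transducin, phosphodiesterase and channel subunits, the factors were compared in the same way. Use by every subtype was not checked for each of the listed names, which include *arr3a* and *arr3b*. Of 16 such names 15 were found and tested, and 9 of them changed, all lower. Their median was −1.51 on the log2 scale, against −0.36 for the 7 factors and 0.05 for all genes tested. The count was 1 without wt sample 1, 2 without wt sample 2 and 3 without *tulp1*-dKO sample 2. The 3 with the smallest p were the channel subunit gene *cngb3.1*, which fell from 8.57 ± 0.311 to 2.25 ± 0.439 TPM, the phosphodiesterase gene *pde6c*, from 262 ± 14.1 to 103 ± 21.98 TPM, and the channel subunit gene *cnga3a*, from 23.3 ± 2.01 to 8.25 ± 2.04 TPM (limma adjusted p = 0.00387, 0.0106 and 0.0174). The exception in direction was *gngt2a*, at 74.0 TPM or below in wt heads, compared with 126 TPM or above in *tulp1*-dKO heads (log2 fold change 1.18, limma adjusted p = 0.0566). Relative to the mean log2 level of these 15 genes in the same sample, all 7 factors were higher in *tulp1*-dKO heads without overlap, by log2 differences of 0.85 (SE 0.22) for *foxq2*, 0.90 (SE 0.25) for *six7*, 1.08 (SE 0.27) for *rxrga*, 1.15 (SE 0.18) for *six6b*, 1.44 (SE 0.21) for *tbx2b*, 1.51 (SE 0.28) for *tbx2a* and 1.71 (SE 0.40) for *thrb*. Each gives p = 0.1 in the exact two-sided permutation test, the smallest possible. These 7 values share 1 denominator, so they are not independent of each other. That denominator was lower in *tulp1*-dKO heads, so a gene with a steady level would also be higher against it. A gene at the median of all genes tested would have risen more against it than each factor except *thrb*. The share of all genes higher in this way was not measured, so the rise cannot be read as particular to the factors.

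The factors have close relatives in the genome, and 5 ratios within such pairs were compared, chosen after the values were seen. *six6a*, the copy of *six6b*, was at 4.98, 5.63 and 7.32 TPM in wt heads, against 8.33, 6.96 and 5.84 TPM in *tulp1*-dKO heads, with overlap between the groups. The ratio of *six6b* to *six6a* was lower in every *tulp1*-dKO sample (log2 difference −0.59, SE 0.19). *rxrgb*, the copy of *rxrga*, was at 7.93, 8.20 and 9.81 TPM in wt heads, against 9.35, 9.66 and 8.60 TPM in *tulp1*-dKO heads, and the ratio of *rxrga* to *rxrgb* was again lower in every *tulp1*-dKO sample (log2 difference −0.52, SE 0.13). Both ratios have p = 0.1 in the exact permutation test, 0.25 adjusted over the 5 ratios. *six6b* and *rxrga* were themselves lower without overlap, so their ratio to a gene with a steady level would also be lower. The share of other genes giving such a ratio was not measured, so these ratios are not support beyond the levels. The ratio of *tbx2b* to *tbx2a* overlapped between the groups (log2 difference −0.07, SE 0.13, exact permutation p = 0.6), as did those of *thrb* to the thyroid hormone receptor alpha genes *thraa* and *thrab* (log2 differences 0.34, SE 0.34, and 0.28, SE 0.24, exact permutation p = 0.4 for both). Sharing of reads between these copies was not measured.

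The other genes of the same families were near the median of all genes. Of 11 other sine oculis type homeobox genes, 14 of 17 other T-box genes and 7 forkhead genes of head tissues that were tested, none had an adjusted p of at most 0.05 by limma, and none had an unadjusted p of at most 0.05. Their list medians lay between −0.03 and 0.03 on the log2 scale. *tbx6* (log2 fold change 0.37), *six6a* (0.24) and *foxq1a* (−0.22) were examples from the edges of these lists. The eye homeobox genes *six3a* and *six3b* were at 30.7 to 53.4 TPM over the 6 samples, with log2 fold changes of 0.12 and 0.08. In a list of 10 genes of dorsal eye signalling, which in zebrafish includes *gdf6a*, a signal needed for *tbx2b* expression in the retina, none had an unadjusted p of at most 0.05. *gdf6a* was at 3.93 to 6.34 TPM in wt heads, against 5.32 to 5.88 TPM in *tulp1*-dKO heads, and *bmp4* had a log2 fold change of 0.20 (limma adjusted p = 0.408).

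In a list of 24 genes of the thyroid hormone and retinoid X receptor pathway, 21 were found and tested and none had an adjusted p of at most 0.05. At an unadjusted p of at most 0.05 by limma, *tg* was higher and *tshba* lower, where 2302 of the 22824 genes tested were higher and 1590 lower. *tshba*, which encodes the beta subunit of thyroid stimulating hormone made in the pituitary, was at 3.92, 2.61 and 3.52 TPM in wt heads, against 1.42, 1.61 and 1.38 TPM in *tulp1*-dKO heads. No sample overlapped, and its log2 fold change was −1.12 (95% interval from limma −1.64 to −0.60, adjusted p = 0.0576). *tg*, which encodes thyroglobulin, the protein on which the hormone is made, was at 6.33, 6.04 and 7.26 TPM in wt heads, against 10.02, 7.95 and 12.7 TPM in *tulp1*-dKO heads (log2 fold change 0.61, limma adjusted p = 0.163). Of the enzymes that convert the hormone, *dio1*, *dio2* and *dio3b* had log2 fold changes of −0.39, −0.37 and −0.28, with *dio1* lower in each *tulp1*-dKO sample (limma adjusted p = 0.32, 0.764 and 0.773). The corepressor gene *ncor1* and the coactivator genes *ncoa1*, *ncoa2* and *ncoa3* lay between 0.06 and 0.25 on the log2 scale.

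Other transcription factors of photoreceptors, those of rods among them, were set beside the subtype factors. Of 14 such genes, none had an adjusted p of at most 0.05, and 3 were lower and 1 higher where no adjustment was made (p up to 0.05). At that unadjusted p by limma, 1590 of the 22824 genes tested were lower and 2302 higher. Lower in every *tulp1*-dKO sample were 4 of the 14, *samd7*, *nr2f6b*, *rx2* and *nr2e3*. Without overlap 2 were higher, *prdm1a* and *rorb*, and of all genes tested 8.86% were lower and 14.6% higher without overlap. *samd7*, a transcriptional repressor that acts in photoreceptors, was at 14.2, 18.9 and 13.7 TPM in wt heads, against 9.77, 6.59 and 8.62 TPM in *tulp1*-dKO heads (log2 fold change −0.90, limma adjusted p = 0.0706). *nr2f6b* was at 29.7, 34.4 and 34.7 TPM in wt heads, against 27.0, 23.8 and 20.6 TPM in *tulp1*-dKO heads (log2 fold change −0.47, limma adjusted p = 0.127). *prdm1a* and *rorb* had log2 fold changes of 0.51 and 0.26 (limma adjusted p = 0.199 and 0.304). *crx*, an activator of photoreceptor genes, was at 57.2, 64.8 and 90.8 TPM in wt heads, against 103, 70.3 and 55.9 TPM in *tulp1*-dKO heads, and *otx5* and *neurod1* also overlapped between the groups. The median of the list was −0.11 on the log2 scale.

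**Figure D4:**
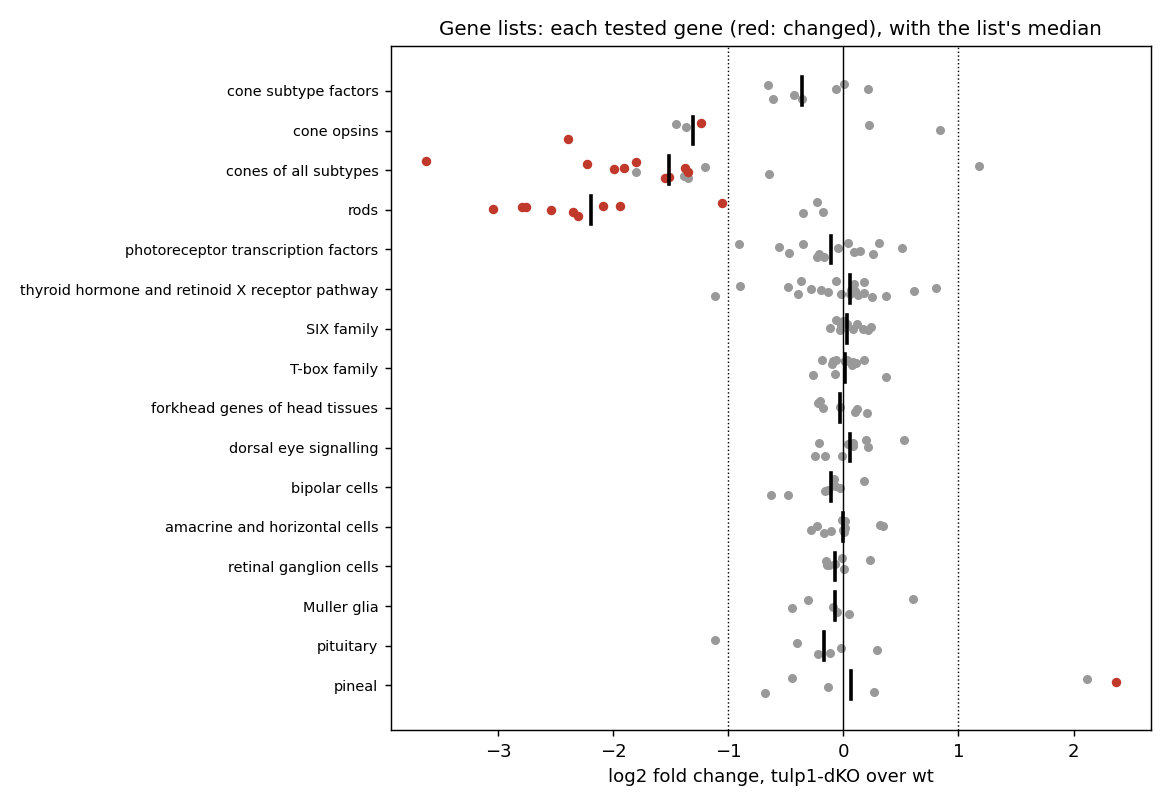
log2 fold change in *tulp1*-dKO over wt heads (x axis) of each tested gene in the 7 factors and in 15 gene lists (y axis), with the median of each as a black bar. Red points passed an adjusted p of 0.05 and a 2-fold change, and points are spread vertically only to be seen. The medians are −1.30 for the cone opsins, −1.51 for the genes listed for all cones, −2.20 for rods and −0.36 for the 7 factors. The other medians lie between −0.17 and 0.06.

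Markers of the cells that could hold these transcripts moved as follows. The rod markers, 12 of 13 found, summed to 2598 to 3020 TPM in wt and to 455 to 770 TPM in *tulp1*-dKO heads, and 9 of them changed, all lower, led by *pde6a*, *gnat1* and *gngt1*, while the rod factors *nrl* and *nr2e3* and the transducin subunit gene *gnb1b* did not. The genes listed for all cones summed to 7226 to 9634 TPM in wt and to 1835 to 3149 TPM in *tulp1*-dKO heads. None of the 32 tested markers of Muller glia, retinal ganglion cells, bipolar cells and amacrine or horizontal cells had an adjusted p of at most 0.05, and the list medians lay between −0.11 and −0.0007 on the log2 scale. The ones with the smallest p were *trpm1a* of bipolar cells (log2 fold change −0.62), *gad1b* of amacrine cells (−0.28), *rbpms2b* of retinal ganglion cells (0.23) and *gfap* of Muller glia (0.61), with limma adjusted p values of 0.167, 0.118, 0.365 and 0.0954. The summed bipolar cell markers were at 329 to 350 TPM in wt heads, against 282 to 341 TPM in *tulp1*-dKO heads, and those of amacrine and horizontal cells at 665 to 719 and 614 to 708 TPM. Those of retinal ganglion cells were at 384 to 426 and 380 to 438 TPM, and those of Muller glia at 1043 to 1151 and 976 to 1045 TPM. All these are levels in whole heads, so brain and other tissues can enter them, and the part of the retina was not separated. They therefore do not show whether these retinal cells were unchanged.

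Pituitary markers, 8 of 9 found, summed to 41.9 to 50.3 TPM in wt and to 37.5 to 40.8 TPM in *tulp1*-dKO heads without overlap. Besides *tshba*, *pomca* was lower in every *tulp1*-dKO sample (log2 fold change −0.40, limma adjusted p = 0.277). The groups overlapped for the remaining tested markers, *prl*, *cga*, *gh1* and *pomcb*, with log2 fold changes of −0.22, −0.12, −0.02 and 0.29. Of the pituitary markers, *gh1* had the highest mean, 22.4 TPM in wt heads against 22.1 TPM in *tulp1*-dKO heads. *smtla* was not tested. Its value was 0 in every wt sample, while *tulp1*-dKO sample 2 reached 0.71 TPM. *six6b* was also lower in every *tulp1*-dKO sample, and the part of the pituitary in its level was not tested. The pineal markers, all 7 found, summed to 32.4 to 41.4 TPM in wt and to 46.3 to 61.4 TPM in *tulp1*-dKO heads. The gap between these sums was carried by *aanat2*, an enzyme gene of melatonin synthesis and the marker whose TPM differed most. *aanat2* was at 3.29, 6.39 and 2.95 TPM in wt heads, against 12.3, 14.1 and 30.9 TPM in *tulp1*-dKO heads (log2 fold change 2.12, limma adjusted p = 0.057). Without it the sums would overlap, and *asmt* and *bsx* had log2 fold changes of −0.68 and −0.44. *parapinopsinb* rose from 0.463 ± 0.15 to 2.81 ± 0.79 TPM (log2 fold change 2.37, limma adjusted p = 0.0233), while the pineal opsin *exorh* had a log2 fold change of −0.14. The call of *parapinopsinb* did not hold without wt sample 1, without *tulp1*-dKO sample 1, 2 or 3, or with the replicate block, and at a minimum mean of 2 TPM the gene was not tested. The part of pineal photoreceptors in the levels of the 7 factors was not tested.

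Across the 6 samples, the genes most like *six6b*, the factor with the smallest p, were *saga*, *eno1b* and *grk1a*, with Pearson's r of 0.998, 0.996 and 0.995 over the log2 values. They are given as a description, and 226 of the 19288 genes averaging 2 TPM or more had an r above 0.95 with *six6b*. Both groups enter each r, so a gene clearly lower in *tulp1*-dKO heads tends to a high r with *six6b*. *saga* and *grk1a* are a photoreceptor arrestin and a rhodopsin kinase gene. The size of their difference was not that of *six6b*, with log2 fold changes of −2.35 and −2.54 against −0.36. In the RefSeq gene order of assembly GRCz12tu, which is not the assembly of the files and was used only for neighbours, 12 of the 14 genes flanking the 7 factors were tested and none had an adjusted p of at most 0.05. At an unadjusted p of at most 0.05 by limma there were 3, *zgc:101810*, *b4gat1* and *nr1d2b*, where 2302 of the 22824 genes tested were higher and 1590 lower. Of these, *zgc:101810* and *b4gat1*, on either side of *six7*, had log2 fold changes of 0.40 and 0.37 where *six7* had −0.61. The gene next to *thrb*, *nr1d2b*, had −0.61.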

How the data were processed

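RNA-seq of dissected 4 dpf heads from 3 wt and 3 *tulp1*-dKO samples was used. Per the paper's methods and the submitters' processing notes, the authors aligned NovaSeq reads to GRCz11 by HISAT2 and quantified genes by RSEM, and TPM values were deposited by sample. The versions are not given in the sources used here. TPM holds no depth, so precision was taken from the spread between samples, and the DESeq2 test of the authors, which needs counts, was not run. TPM is also a share, so a fall of abundant transcripts raises the values of all others.

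log2(TPM + 0.1) of the 22824 genes whose mean reached 0.5 TPM was modelled by limma 3.58.1 (R 4.3.3, trended eBayes), two-sided, with Benjamini-Hochberg adjustment. This scale understates the changes of low genes. The fit was tested on simulated data. Ratios within samples were compared by exact permutation. Python 3.11.15, pandas 2.3.3, scipy 1.17.1 and matplotlib 3.10.9 were used for tables and plots.

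The 7 members and the 15 gene lists, written from general knowledge, were chosen with earlier results of these data known. Genes named are the members, the cone opsins, the genes of each list with the smallest p, the 3 most like the member with the smallest p, the targeted genes, and others named after their values were seen. Promoter and protein sequences were not used here. Alternatives were quantile normalization, median ratio scaling, a total that omits the 50 most abundant genes, pseudocounts of 0.5 and 1, a filter at 2 TPM or none, untrended or robust eBayes, the replicate number as a block and each sample left out.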

Additional observations from a re-analysis of the deposited data

How the results depend on the processing

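The 7 factors had 0 changed genes under all 16 alternatives, and 0 with an adjusted p of at most 0.05 under 15 of them. Without wt sample 3 that count was 1, *six7*, and over the samples left out in turn it was 0 to 1. The sign of each log2 fold change held for 6 factors. That of *tbx2a* turned to −0.0434 with median ratio scaling and to −0.0227 with quantile normalization, and leaving out single samples gave −0.0505 to 0.0659. Changed cone opsins numbered 2, 3 with median ratio scaling, 1 with eBayes without trend, with robust eBayes and with the replicate block, and 1 to 3 with a sample left out. Changed genes of the list for all cones numbered 9, 3 with eBayes without trend and 5 with the replicate block. They numbered 1 to 7 with a sample left out, where fewer samples enter the fit. The ratios to opsins and to cone genes moved by less than their spread. Same-numbered samples of the groups deviated together only weakly (r 0.029 to 0.032) and were not treated as paired, though each correlated best with its own number. The changed genes over all genes tested numbered 302, 134 with the block and 104 to 243 with a sample left out, and the block left the 7 factors at 0. No scaling moved the median of all genes by over 0.1. The depth behind a TPM value is not known, so counting error could not be separated from the spread between samples.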
